A study of Homo sapiens with 8 samples.

Results

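The interferon response genes examined here are 38 named genes that interferon signalling is known to switch on or that carry its signal, taken by symbol from the raw counts table (RIGI is also named DDX58). Of these, 37 had a row among the 32066 genes of the table and XAF1 was not analysed here. The genes were measured by poly(A) RNA sequencing in DU145, an epithelial prostate carcinoma line from a brain metastasis. The labels give 4 libraries of DU145 cells overexpressing SOX11, a transcription factor of the SOX family, and 4 libraries of DU145 control cells. All cells were grown in DMEM with 10% FBS. How SOX11 was introduced, what the control cells carried, whether the cells were 1 clone and whether libraries came from separate cultures is stated nowhere in the sources used here, so p-values measure only the spread between these libraries. The labels name no interferon or virus for any group.

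Interferons are secreted proteins that warn cells of viral infection. Type I interferons bind the receptor chains IFNAR1 and IFNAR2, the kinases JAK1 and TYK2 phosphorylate STAT proteins, among them STAT2, and these join IRF9 in a complex that binds the interferon-stimulated response element (ISRE) in the promoters of antiviral genes. Many of these genes are also transcribed at a low basal level in cells that have met no virus, through unphosphorylated STAT complexes and IRF factors. Their products sense viral RNA, block its translation or degrade it, and some feed back on the pathway.

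The promoters are shown first because many of them, though not all, hold the ISRE core, a feature outside the expression values. Windows of 250 bases before to 50 bases after the annotated start came from RefSeq (GRCh38.p14) and existed for 31 of the 38 genes. In the sequences below, printed on the strand of the gene, capitals mark every match to the ISRE core on either strand. The core was searched as GAAA, any 2 bases and GAAA again, which reads TTTC, any 2 bases and TTTC where it lies on the opposite strand. The windows printed were picked from called members. Those of 3 neighbouring IFIT genes, OAS3, ISG15 and SAMD9 belong to genes that were lower in SOX11 cells. The window of STAT2, which was higher, has no match. The core also stood in 9 of 15 windows of tested members that were not called, which are not printed.
IFIT1 (chr10:89392373-89392672, plus strand): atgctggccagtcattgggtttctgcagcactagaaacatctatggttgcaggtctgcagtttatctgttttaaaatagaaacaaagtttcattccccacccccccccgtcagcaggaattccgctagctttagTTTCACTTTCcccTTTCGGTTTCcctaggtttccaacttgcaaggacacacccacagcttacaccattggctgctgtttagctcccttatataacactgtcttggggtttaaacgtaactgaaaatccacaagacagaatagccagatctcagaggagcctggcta
IFIT3 (chr10:89327747-89328046, plus strand): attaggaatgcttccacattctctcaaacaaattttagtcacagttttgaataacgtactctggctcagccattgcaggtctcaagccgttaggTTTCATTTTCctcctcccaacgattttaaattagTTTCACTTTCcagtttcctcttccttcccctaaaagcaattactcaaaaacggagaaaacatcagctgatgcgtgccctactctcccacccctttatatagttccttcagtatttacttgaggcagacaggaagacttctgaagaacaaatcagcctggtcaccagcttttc
IFIT5 (chr10:89414318-89414617, plus strand): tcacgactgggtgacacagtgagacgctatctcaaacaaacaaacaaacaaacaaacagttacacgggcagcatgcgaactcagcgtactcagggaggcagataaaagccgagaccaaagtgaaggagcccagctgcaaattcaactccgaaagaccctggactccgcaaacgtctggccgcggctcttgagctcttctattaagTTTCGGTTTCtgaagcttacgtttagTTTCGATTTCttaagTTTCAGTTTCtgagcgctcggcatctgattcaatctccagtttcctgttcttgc
OAS3 (chr12:112938224-112938523, plus strand): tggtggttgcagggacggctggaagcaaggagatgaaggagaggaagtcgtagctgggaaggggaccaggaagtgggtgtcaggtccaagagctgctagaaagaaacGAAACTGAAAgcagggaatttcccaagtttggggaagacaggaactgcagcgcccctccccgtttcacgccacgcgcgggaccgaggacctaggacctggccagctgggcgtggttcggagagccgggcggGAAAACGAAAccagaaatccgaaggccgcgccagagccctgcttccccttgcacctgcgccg
ISG15 (chr1:1013247-1013546, plus strand): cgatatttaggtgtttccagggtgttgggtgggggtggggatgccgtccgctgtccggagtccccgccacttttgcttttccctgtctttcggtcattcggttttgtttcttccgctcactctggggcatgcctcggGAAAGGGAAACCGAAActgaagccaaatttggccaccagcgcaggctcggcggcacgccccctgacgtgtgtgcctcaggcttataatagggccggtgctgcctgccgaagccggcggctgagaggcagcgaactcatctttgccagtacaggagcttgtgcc
SAMD9 (chr7:93117930-93118229, minus strand): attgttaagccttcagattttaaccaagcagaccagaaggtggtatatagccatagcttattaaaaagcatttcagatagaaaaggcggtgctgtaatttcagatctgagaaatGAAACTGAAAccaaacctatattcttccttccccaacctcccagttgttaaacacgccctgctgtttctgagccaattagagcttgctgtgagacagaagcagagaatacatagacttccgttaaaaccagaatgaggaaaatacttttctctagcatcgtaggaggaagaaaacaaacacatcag
STAT2 (chr12:56360058-56360357, minus strand): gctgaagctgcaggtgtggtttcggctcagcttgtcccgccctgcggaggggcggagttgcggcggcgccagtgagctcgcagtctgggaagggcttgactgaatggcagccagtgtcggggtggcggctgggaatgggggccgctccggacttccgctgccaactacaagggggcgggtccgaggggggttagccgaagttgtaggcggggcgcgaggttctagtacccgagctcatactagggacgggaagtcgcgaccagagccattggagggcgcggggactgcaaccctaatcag

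The ISRE core was found on either strand in 19 of the 31 member windows (61.3%), against 996 of 27305 windows in the whole table (3.65%). On the strand of the gene alone it was found in 14 member windows (45.2%), against 1.75% of all windows. Counted from the annotated start, with bases before it negative, the matches of IFIT1 began at -116 and -103, those of IFIT3 at -156 and -122 and those of IFIT5 at -45, -19 and -4, all on the opposite strand. Those of OAS3 began at -143 and -12, that of SAMD9 at -136 and the overlapping pair of ISG15 at -113 and -107, all on the strand of the gene. The GAS core TTCNNNGAA, bound by dimers of STAT proteins, was found on both strands alike in 9 member windows (29%), against 7.88% of all windows, and 4 of the 36 ISRE matches overlapped a GAS match. The SOX-type core ACAAAG was found in 6 member windows (19.4%, against 16.0% of all windows) and ACAATG in 2 (6.45%, against 11% of all windows), on either strand. A match describes letters in this window and does not show that a factor binds there. Only these exact strings were searched, so a window without a match can still hold a near form of the element.

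Total counts ran from 15309037 to 16740516 in the SOX11 libraries and from 14641250 to 18706095 in the control libraries. SOX11 itself had 303 to 317 counts in the SOX11 libraries and 0 in each control library. At 19.2 ± 0.943 CPM (counts scaled to a common library total; SD, n = 4) against a floor of 3 counts over the control group, 0.0475 CPM, it was at least 404-fold higher. Mitochondrial genes took 8.73% to 9.35% of counts in SOX11 libraries and 8.55% to 9.24% in control libraries. All 8 epithelial markers were tested, and their summed level ran from 2618 to 2687 CPM in SOX11 libraries and from 2975 to 3488 CPM in control libraries. The sum hid opposite changes. KRT19, KRT8, KRT18 and KRT7 were called lower (log2 fold changes -0.68, -0.51, -0.42 and -0.16) and CLDN4 and ESRP1 higher (0.99 and 0.81), while EPCAM and CDH1 were not called. Markers of the cells that make the most type I interferon, plasmacytoid dendritic cells, were nearly absent, with TCF4 alone of 5 markers holding a row and 1 count in each group. Of 8 blood cell markers 5 had a row, with a summed level of 0.716 to 1.24 CPM in SOX11 libraries and 0.766 to 0.970 CPM in control libraries. Most of it was CD14, with 33 counts in the SOX11 group and 40 in the control group. In the same order PTPRC had 1 and 3 counts, LYZ 8 and 6, CD68 7 and 5 and CSF1R 10 and 2. None of these was tested. The 5 endothelial markers with a row summed to 0.182 to 0.532 CPM in SOX11 libraries and 0.379 to 0.832 CPM in control libraries. The 5 fibroblast markers with a row summed to 5.62 to 7.59 CPM in SOX11 libraries and 3.12 to 5.11 CPM in control libraries, nearly all of it COL1A1, which was called higher (log2 fold change 0.72, edgeR adjusted p = 0.00053). COL3A1 ran the other way, with 6 counts in the SOX11 group and 18 in the control group, and was not tested. The part of these differences in the results below was not tested. Fewer cells expressing a gene and less RNA of it per cell cannot be told apart in these bulk libraries.

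In SOX11 cells, part of the interferon response list was modestly lower. OAS3, the IFIT genes, ISG15, MX1 and SAMD9 fell, by 15.8% (IFIT5) to 37.3% (SAMD9), and STAT2 rose. Genes were tested with edgeR's quasi-likelihood test and called at a Benjamini-Hochberg adjusted p below 0.05 over all 15665 genes that passed a filter on low counts. Of the 38 members 27 passed the filter, and of these 8 were called lower (29.6%) and 1 higher (3.70%). Among all tested genes 9.67% were called lower and 10.3% higher, 20% in all. The members were chosen with earlier results of these data known, so the shares are descriptions and not a test of the list. Negative log2 fold changes were seen in 18 of the 27 members, and in 49.7% of all tested genes. The median log2 fold change (SOX11 minus control) was -0.06 over the 27 members and 0.0011 over all tested genes. The members' median was -0.19 without SOX11 replicate 2, -0.15 without control replicate 2, -0.12 without control replicate 4, -0.12 with the stricter filter on low counts and -0.037 with libraries scaled by their totals alone. The groups did not overlap in 8 members with SOX11 libraries lower and in 1 with SOX11 libraries higher, and in 10.4% and 10.6% of all tested genes. With libraries scaled by their totals alone, 6 members were called lower and 2 higher, among 1062 lower and 2044 higher calls over all genes, where the TMM scaling gave 1515 lower and 1615 higher. Positions of the called members follow GENCODE release 29 (GRCh38). The IFIT genes lie with IFIT2 (ENSG00000119922) at chr10:89283694-89309276, IFIT3 (ENSG00000119917) at chr10:89327894-89340971, IFIT1 (ENSG00000185745) at chr10:89392546-89406486 and IFIT5 (ENSG00000152778) at chr10:89414586-89421001. The others lie with OAS3 (ENSG00000111331) at chr12:112938352-112973249, ISG15 (ENSG00000187608) at chr1:1001138-1014540, MX1 (ENSG00000157601) at chr21:41420304-41459214, SAMD9 (ENSG00000205413) at chr7:93099513-93118023 and STAT2 (ENSG00000170581) at chr12:56341597-56360155.

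**Figure D1:**
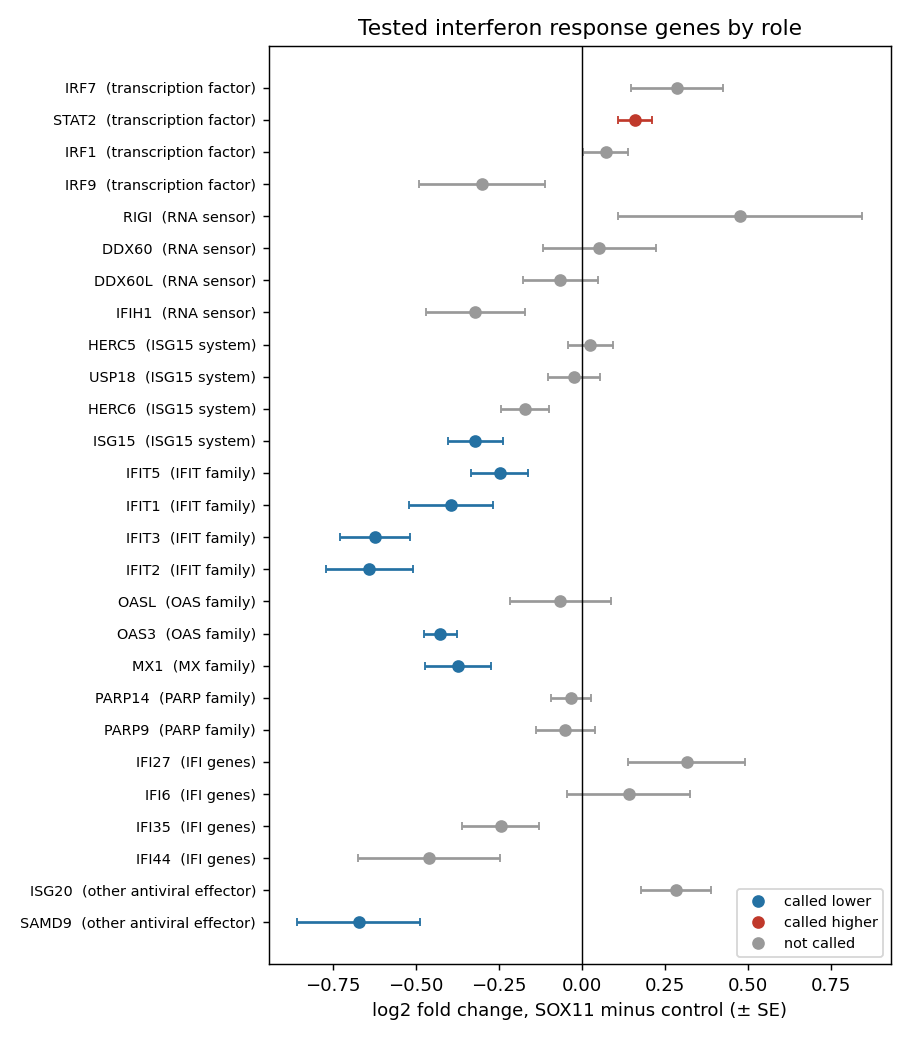
Log2 fold change (SOX11 minus control, x axis) of the 27 tested interferon response genes, grouped by role, with the standard error as bars and blue, red and grey for genes called lower, called higher and not called. The 4 IFIT genes lie between -0.64 and -0.25, and the 4 transcription factor genes between -0.30 and 0.29.

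The IFIT genes encode tetratricopeptide repeat proteins, some of which bind foreign RNA and curb its translation, and they lie side by side on chromosome 10. All 4 were called lower. IFIT3 had 8.45, 10.3, 7.12 and 9.44 CPM in SOX11 replicates 1 to 4, against 14.2, 11.2, 15.2 and 14.2 CPM in control replicates 1 to 4. Every SOX11 library was below every control library (log2 fold change -0.62, SE 0.106, with 4 libraries in each group and an edgeR adjusted p of 7.95e-05; values after ± a log2 fold change are SEs). IFIT2 had 5.55, 6.51, 5.35 and 4.88 CPM in SOX11 libraries, against 8.37, 6.60, 10.9 and 9.36 CPM in control libraries. The groups did not overlap, though SOX11 replicate 2 and control replicate 2 nearly met (log2 fold change -0.64 ± 0.131, adjusted p = 0.000728). IFIT2 shares exon positions with LIPA, a lysosomal lipase gene on the opposite strand at 104 ± 6.62 CPM in SOX11 and 108 ± 5.13 CPM in control libraries, and the strand setting of the counting is unknown here.

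IFIT1 had 8.14, 12.5, 8.94 and 7.81 CPM in SOX11 libraries, against 13.9, 10.8, 13.1 and 11.8 CPM in control libraries. The groups overlapped, since SOX11 replicate 2 was above control replicates 2 and 4 (log2 fold change -0.39 ± 0.126, edgeR adjusted p = 0.0345). IFIT5 had 9.32, 11.7, 10.9 and 11 CPM in SOX11 libraries, against 13.7, 12.5, 12.8 and 12 CPM in control libraries, with no overlap (log2 fold change -0.25 ± 0.0857, adjusted p = 0.0387). The IFIT1 call ended in 6 of 8 fits that left out 1 library, with an adjusted p of 0.103, 0.0900 and 0.0842 without SOX11 replicates 1, 3 and 4 and of 0.0835, 0.0827 and 0.0559 without control replicates 1, 3 and 4. Without SOX11 replicate 2 the log2 fold change of IFIT1 was -0.57. The IFIT5 call ended without SOX11 replicates 1 (adjusted p = 0.152), 3 (0.0612) or 4 (0.0525) and without control replicates 1 (0.112), 2 (0.0631) or 3 (0.0723), and with DESeq2 (0.0911).

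Within the groups, the same libraries were high or low for several IFIT genes. SOX11 replicate 2 had the highest value of the SOX11 libraries for all 4 IFIT genes, and control replicate 2 had the lowest of the control libraries for 3 of 4. The summed level of the 4 genes was 34.5 ± 4.36 CPM in SOX11 libraries (31.5 to 40.9) and 47.6 ± 4.78 CPM in control libraries (41.1 to 52.0, SD, n = 4 each). In their order along the chromosome the log2 fold changes were -0.64 for IFIT2, -0.62 for IFIT3, -0.39 for IFIT1 and -0.25 for IFIT5 (differences between these genes were not tested).

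**Figure D2:**
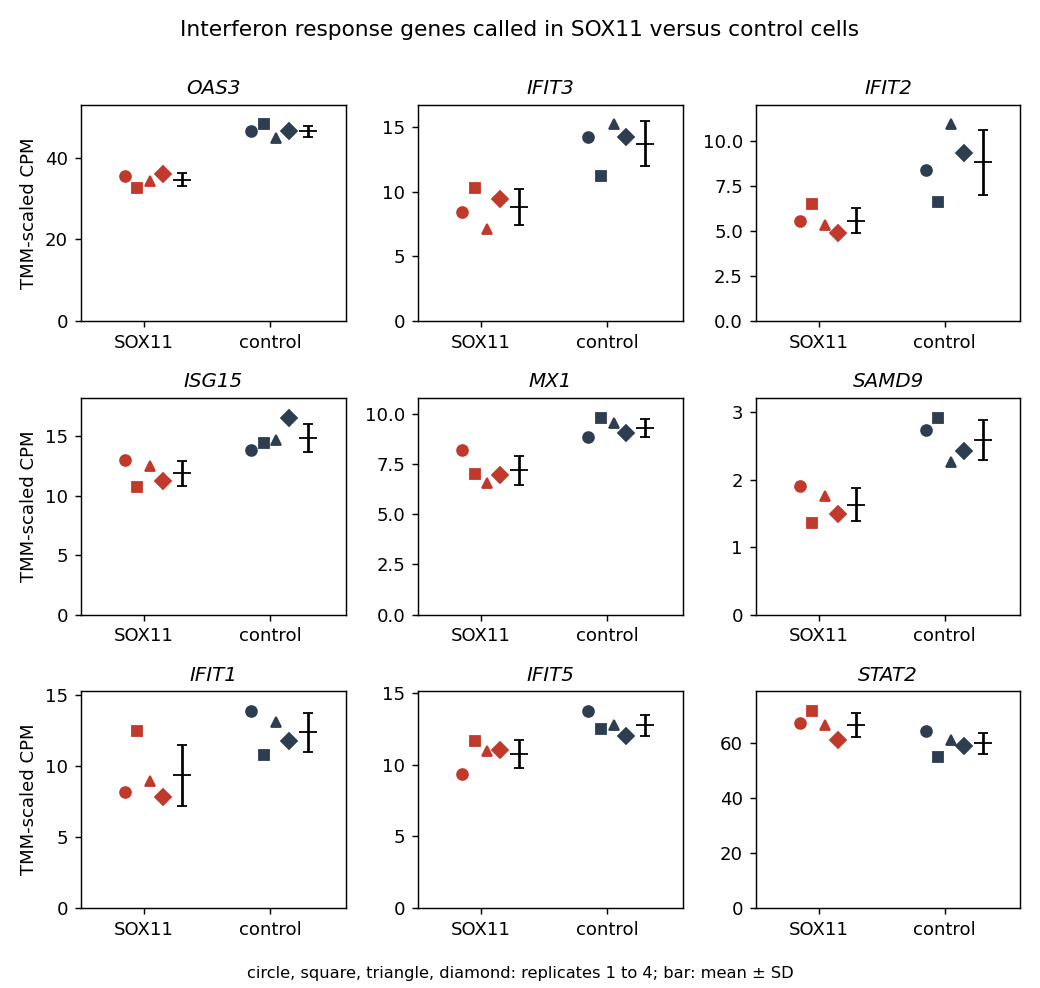
TMM-scaled CPM (y axis, from 0) of the 9 called interferon response genes in the 4 SOX11 and 4 control libraries, with 1 marker shape per replicate number and the mean ± SD as bars. Groups overlap for IFIT1 and STAT2 alone, and SOX11 replicate 2 (square) is the highest SOX11 library for each IFIT gene.

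The oligoadenylate synthetases sense double-stranded RNA and make the messenger that activates RNase L. OAS3, the largest of them, had 35.6, 32.5, 34.4 and 36.0 CPM in SOX11 libraries, against 46.4, 48.1, 44.7 and 46.5 CPM in control libraries. It had the smallest adjusted p of the members (log2 fold change -0.43 ± 0.050, edgeR adjusted p = 1.54e-07), and no library left out moved it outside -0.45 to -0.40. Its cluster neighbours OAS1 and OAS2 on chromosome 12, 5129 and 5145 bases away, were nearly silent. OAS1 had 4, 5, 3 and 5 counts in SOX11 libraries and 5, 2, 4 and 2 counts in control libraries, and OAS2 had 2, 6, 4 and 0 counts in SOX11 libraries and 4, 5, 11 and 4 counts in control libraries, both too few to test. OASL, which lacks synthetase activity and lies apart on the same chromosome, was not called (5.57 ± 1.43 CPM in SOX11 and 5.88 ± 0.963 CPM in control libraries, adjusted p = 0.821).

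The MX genes, dynamin-like GTPases that trap viral nucleocapsids, are neighbours on chromosome 21. MX1 had 8.21, 6.98, 6.57 and 6.97 CPM in SOX11 libraries, against 8.81, 9.79, 9.55 and 9.01 CPM in control libraries. The groups did not overlap (log2 fold change -0.37 ± 0.0988, edgeR adjusted p = 0.00652). MX2 had 2 to 7 counts in SOX11 libraries and 4 to 8 counts in control libraries and was not tested. SAMD9, an antiviral protein that restricts poxviruses, had 1.91, 1.36, 1.76 and 1.5 CPM in SOX11 libraries, against 2.75, 2.92, 2.27 and 2.43 CPM in control libraries. It had the largest log2 decrease of the members (-0.67 ± 0.185, adjusted p = 0.00900) on 106 counts in the SOX11 group and 165 in the control group. IFIT2 (-0.64 ± 0.131) and IFIT3 (-0.62 ± 0.106) lay within that SE, so the order of these genes is not resolved. SAMD9L, the neighbour of SAMD9, had 2 counts in each group.

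ISG15 is a ubiquitin-like protein that is joined to other proteins by HERC5, and USP18 removes it and also blocks the type I receptor. ISG15 had 13.0, 10.8, 12.5 and 11.3 CPM in SOX11 libraries, against 13.9, 14.4, 14.7 and 16.6 CPM in control libraries. The groups did not overlap (log2 fold change -0.32 ± 0.0830, edgeR adjusted p = 0.00554), and its antisense partner ENSG00000231702 was at 0.258 CPM in SOX11 and 0.221 CPM in control libraries. USP18 had 13.6, 16.2, 15.4 and 15.6 CPM in SOX11 libraries, against 13.7, 15.5, 16.9 and 15.7 CPM in control libraries. The values were mixed across groups and the gene was not called (log2 fold change -0.02 ± 0.0785, adjusted p = 0.877). HERC5 had 17.2, 17.1, 16.8 and 17.8 CPM in SOX11 libraries, against 17.3, 16.9, 16.1 and 17.3 CPM in control libraries (log2 fold change 0.03 ± 0.0673, adjusted p = 0.844). HERC6, its neighbour on chromosome 4, had 13.5, 14.0, 13.1 and 13.3 CPM in SOX11 libraries, against 15.5, 14.3, 15.5 and 15.5 CPM in control libraries, which did not overlap but did not pass the test (log2 fold change -0.17 ± 0.0736, adjusted p = 0.103).

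Among the factors that drive the response, STAT2 was the only member called higher. It had 67.3, 71.6, 66.6 and 61.1 CPM in SOX11 libraries, against 64.3, 54.9, 61.2 and 58.9 CPM in control libraries. SOX11 replicate 4 lay within the control range (log2 fold change 0.16 ± 0.0505, edgeR adjusted p = 0.0241). The call ended without SOX11 replicate 1 (adjusted p = 0.0626) or 2 (0.0886) and without control replicate 2 (0.141) or 4 (0.0589). IRF9, which binds DNA in a complex with STAT2, was at 1.94 ± 0.149 CPM in SOX11 and 2.39 ± 0.575 CPM in control libraries (log2 fold change -0.30, adjusted p = 0.296) and shares exon positions with ENSG00000259529 on the same strand. IRF7, the amplifier of interferon production, was at 4.81 ± 0.660 CPM in SOX11 and 3.92 ± 0.546 CPM in control libraries (log2 fold change 0.29, adjusted p = 0.150). IRF1, which also binds the ISRE and is induced by interferon gamma, was at 16.9 ± 0.582 CPM in SOX11 and 16.1 ± 0.319 CPM in control libraries (log2 fold change 0.07, adjusted p = 0.522).

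The sensors RIGI and IFIH1 are helicases that detect viral RNA in the cytosol and start interferon production, and DDX60 and DDX60L are related helicases. Of these 4 members edgeR called 0, with 1 at an unadjusted p under 0.05, and DESeq2 and limma-voom also called 0. With 4 genes, this cannot be told from the 20% that edgeR called over all tested genes. IFIH1 had 3.02, 4.32, 3.35 and 3.26 CPM in SOX11 libraries, against 4.98, 3.52, 4.88 and 4.23 CPM in control libraries (log2 fold change -0.32 ± 0.149, edgeR adjusted p = 0.133). SOX11 replicate 2 and control replicate 2 stood against their groups again, and without SOX11 replicate 2 IFIH1 was called lower (log2 fold change -0.44, adjusted p = 0.0463). RIGI was close to the filter, at 0.715 ± 0.307 CPM in SOX11 and 0.519 ± 0.198 CPM in control libraries (adjusted p = 0.412), and reached the cutoff of 0.630 CPM in 5 libraries, where the other 26 tested members did so in all 8. DDX60 was at 3.69 ± 0.805 CPM in SOX11 and 3.61 ± 0.821 CPM in control libraries, and DDX60L at 5.56 ± 0.445 CPM in SOX11 and 5.83 ± 0.206 CPM in control libraries.

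The mono-ADP-ribosyltransferase family genes PARP9 and PARP14, which modify host and viral proteins, were not called. PARP14 had 30.9, 32.6, 30.1 and 30.3 CPM in SOX11 libraries, against 34.3, 32.0, 33.0 and 27.4 CPM in control libraries (log2 fold change -0.03 ± 0.0607, edgeR adjusted p = 0.764). PARP9, which overlaps DTX3L on the opposite strand, was at 9.49 ± 0.682 CPM in SOX11 and 9.83 ± 0.302 CPM in control libraries. Of the 4 tested IFI genes edgeR, DESeq2 and limma-voom called 0, with 2, 0 and 2 at an unadjusted p under 0.05 by these tools. So few genes cannot be told from the 20% that edgeR called over all tested genes. IFI35 had 6.73, 5.44, 5.23 and 5.21 CPM in SOX11 libraries, against 6.39, 7.63, 6.39 and 6.24 CPM in control libraries, so that SOX11 replicate 1 lay within the control range (log2 fold change -0.24 ± 0.117, adjusted p = 0.146). IFI44 was at 1.27 ± 0.237 CPM in SOX11 and 1.77 ± 0.219 CPM in control libraries (log2 fold change -0.46, adjusted p = 0.135). IFI27, a mitochondrial and nuclear envelope protein, was at 2.39 ± 0.237 CPM in SOX11 and 1.92 ± 0.134 CPM in control libraries, with every SOX11 library above every control library but no call (log2 fold change 0.32, adjusted p = 0.227). IFI6 had 2.90, 3.02, 2.49 and 1.76 CPM in SOX11 libraries, against 1.85, 2.22, 2.75 and 2.5 CPM in control libraries, with mixed values (adjusted p = 0.662). ISG20, an exonuclease that degrades viral RNA, was at 8.16 ± 0.652 CPM in SOX11 and 6.71 ± 0.696 CPM in control libraries and did not pass the test (log2 fold change 0.28 ± 0.105, adjusted p = 0.0557). ISG20 was called higher without SOX11 replicate 4 (log2 fold change 0.32, adjusted p = 0.0449) or control replicate 1 (0.36 and 0.0226), and with scaling by library totals (0.31 and 0.0361).

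The remaining 10 members with a row did not pass the filter. Of these, 7 (BST2, RSAD2, CMPK2, IFI44L, SAMD9L, EPSTI1 and TRIM22) had at most 2 counts in any library. BST2, the tetherin that holds budding virions at the cell surface, had 2 counts in SOX11 replicate 1 and 0 in the other 7 libraries. RSAD2, the radical enzyme viperin, had 0 counts in SOX11 libraries, which allows up to 0.0462 CPM over that group, and 2 counts in control replicate 3. CMPK2, a mitochondrial nucleotide kinase that overlaps RSAD2 on the opposite strand, had 1 count in SOX11 replicate 3 and 0 elsewhere, which allows up to 0.0475 CPM over the control group. Counted to their own starts, CMPK2 and RSAD2 begin 1165249 and 1164420 bases beyond the end of SOX11 on chromosome 2. TRIM22, a ubiquitin ligase, had 5 counts in the SOX11 group and 4 in the control group, and EPSTI1 had 1 and IFI44L 1 count in the SOX11 group, against 5 and 3 in the control group. All 10 had too few counts in both groups to test, and differences between such low counts cannot be read.

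Levels differed between members by more than 3 orders of magnitude when set per kilobase of exon. ISG15 was the highest, at 12.6 ± 1.12 CPM per kb in SOX11 and 15.8 ± 1.24 CPM per kb in control libraries. STAT2 followed at 10.9 ± 0.705 CPM per kb in SOX11 and 9.79 ± 0.648 CPM per kb in control libraries, and USP18 at 7.14 ± 0.532 CPM per kb in SOX11 and 7.27 ± 0.614 CPM per kb in control libraries. In SOX11 libraries OAS3 (4.19 ± 0.193 CPM per kb) and HERC5 (3.62 ± 0.0931) came next, while in control libraries OAS3 (5.63 ± 0.167) and IFIT3 (5.19 ± 0.654) did, the last pair within the spread of IFIT3. IFIT3 was at 3.34 ± 0.517 CPM per kb in SOX11 libraries. Below RIGI (0.164 ± 0.0705 CPM per kb in SOX11 and 0.119 ± 0.0456 in control libraries) lay the members that were not tested. The exon lengths are unions over all annotated transcripts, so genes with long rare transcripts read low on this scale.

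**Figure D3:**
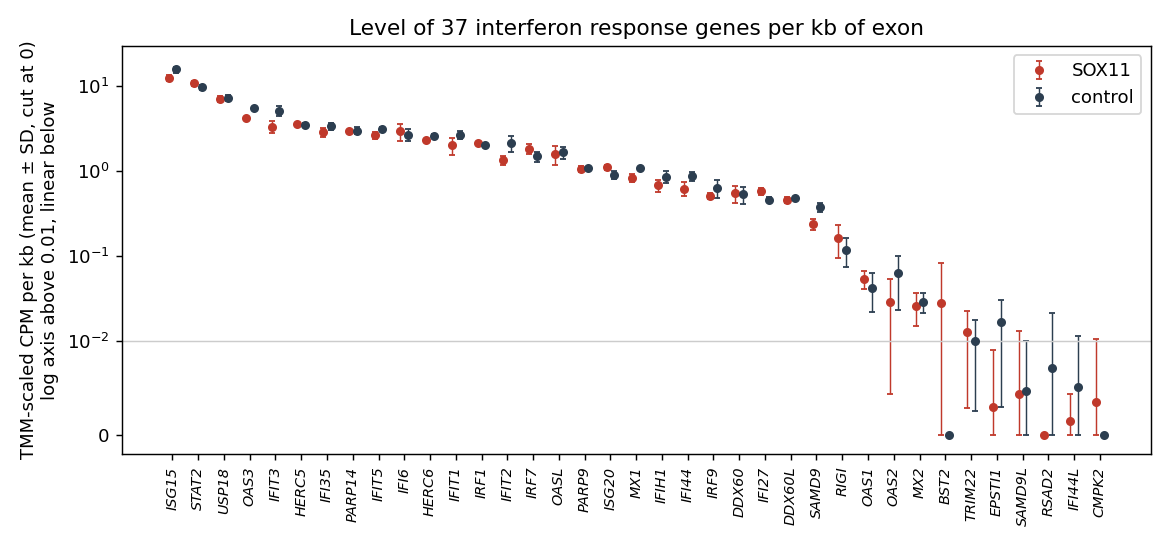
TMM-scaled CPM per kb of exon (y axis, log scale above 0.01 and linear below) of the 37 interferon response genes with a row, ordered by their mean, as mean ± SD over 4 SOX11 (red) and 4 control (dark) libraries with bars cut at 0. ISG15 is highest at 12.6 in SOX11 and 15.8 in control libraries, and 10 genes lie below RIGI.

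Set beside the promoter windows described above, the ISRE core stood in the windows of 7 of the 7 members called lower that had one. It stood in that of 0 of 1 called higher, and in 9 of 15 that were tested and not called. IFIT2 (called lower) and USP18, OASL and IRF7 (tested and not called) had no window. The 16 tested members with a match had a median log2 fold change of -0.28 (from -0.67 for SAMD9 to 0.32 for IFI27), and the 7 without a match a median of -0.05 (from -0.30 for IRF9 to 0.48 for RIGI). Of the 8 member windows whose gene was not tested or had no row, 3 held a match. These counts describe the windows and were not tested. They sort windows by the exact string searched, not by presence or absence of an ISRE. The windows of IFI35 and RIGI, for example, counted as without a match, hold the near form GGAA, any 2 bases and GAAA.

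The rest of the pathway was read from a list of 91 further genes, also chosen with earlier results of these data known. In this list 83 genes had a row and 70 were tested. Of these, 12 were called lower (17.1%) and 5 higher (7.14%), beside 9.67% and 10.3% of all tested genes, and the median log2 fold change was -0.06. Of the 10 ligand genes 3 had a row. IFNB1 and IFNL1 had 1 count each, both in SOX11 replicate 1, and IFNE, an epithelial type I interferon, was at 2.53 ± 0.344 CPM in SOX11 and 2.53 ± 0.732 CPM in control libraries (edgeR adjusted p = 0.992). Of the 6 receptor genes edgeR called 1, beside 20% of all tested genes. IFNAR2 had 36.7, 34.8, 36.3 and 35.3 CPM in SOX11 libraries, against 31.9, 31.9, 32.3 and 31.5 CPM in control libraries. The groups did not overlap (log2 fold change 0.17 ± 0.0504, adjusted p = 0.0178), but the call ended with DESeq2 (0.0559), without a filter on low counts (0.0531) and without SOX11 replicate 1 (0.0516), and IFNAR2 overlaps the readthrough gene IFNAR2-IL10RB. IFNAR1 was at 79.4 ± 1.97 CPM in SOX11 and 83.6 ± 3.70 CPM in control libraries (adjusted p = 0.223).

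Of the 5 kinase and STAT genes edgeR, DESeq2 and limma-voom called 0, with 1, 0 and 2 at an unadjusted p under 0.05. Over all tested genes edgeR called 20%, a share that 0 of 5 cannot be told from. JAK1 was at 94.5 ± 2.17 CPM in SOX11 and 91.1 ± 1.68 CPM in control libraries (edgeR adjusted p = 0.346), and TYK2 at 126 ± 4.85 CPM in SOX11 and 120 ± 0.872 CPM in control libraries (adjusted p = 0.128). TYK2 was called higher where libraries were scaled by their totals alone (log2 fold change 0.11, adjusted p = 0.0329).

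Among 15 tested sensors, adaptors and kinases upstream of interferon production 1 was called lower and 0 higher, beside 9.67% and 10.3% of all tested genes. IKBKE, a kinase that phosphorylates IRF3 and IRF7, had 15, 13, 15.3 and 13.8 CPM in SOX11 libraries, against 17.8, 18.8, 15.9 and 17.3 CPM in control libraries, with no overlap (log2 fold change -0.30 ± 0.0757, edgeR adjusted p = 0.00508). IRF3, its substrate, was at 72.0 ± 2.81 CPM in SOX11 and 76.1 ± 2.82 CPM in control libraries (adjusted p = 0.177). MAVS, the mitochondrial adaptor of RIGI and IFIH1, was at 86.3 ± 4.40 CPM in SOX11 and 85.9 ± 2.94 CPM in control libraries, and STING1, the adaptor for cytosolic DNA sensing, at 22.1 ± 2.63 CPM in SOX11 and 23.0 ± 2.13 CPM in control libraries. Neither was called.

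Of 33 further interferon-inducible effector genes tested, 10 were called lower (30.3%) and 2 higher (6.06%), beside 9.67% and 10.3% of all tested genes. DESeq2 called 7 lower and 1 higher of the same 33. As these genes were listed with earlier results of these data known, the shares are descriptions. LY6E, a surface protein that blocks coronavirus entry, had 122, 122, 121 and 118 CPM in SOX11 libraries, against 144, 149, 150 and 149 CPM in control libraries. The groups were far apart relative to their spread (log2 fold change -0.29 ± 0.0335, edgeR adjusted p = 1.04e-07). ZNFX1, a helicase that senses double-stranded RNA, was at 109 ± 2.67 CPM in SOX11 and 133 ± 1.61 CPM in control libraries (log2 fold change -0.29, adjusted p = 1.87e-07), and overlaps DDX27 and ZFAS1 on the opposite strand. PARP12, at 26.4 ± 0.741 CPM in SOX11 and 33.2 ± 1.32 CPM in control libraries, also fell (log2 fold change -0.33, adjusted p = 4.08e-05). The zinc finger antiviral protein gene ZC3HAV1 (log2 fold change -0.16), NLRC5, the activator of MHC class I genes (-0.38), and SP100, a component of PML nuclear bodies (-0.21), fell as well, with adjusted p of 0.00232, 0.00593 and 0.00859, though the NLRC5 values of the groups overlapped. In the other direction LAMP3, a lysosomal membrane protein of mature dendritic cells, was at 4.57 ± 0.405 CPM in SOX11 and 3.23 ± 0.465 CPM in control libraries (log2 fold change 0.49, adjusted p = 0.0129). The LAMP3 call ended without SOX11 replicate 4 (adjusted p = 0.0515) or control replicate 3 (0.0572). In the IRF family, where 4 genes were tested, IRF2BP2, a corepressor that binds IRF2, rose to 75.7 ± 2.89 CPM in SOX11 libraries, against 66.9 ± 1.94 CPM in control libraries (log2 fold change 0.18, adjusted p = 0.00215).

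**Figure D4:**
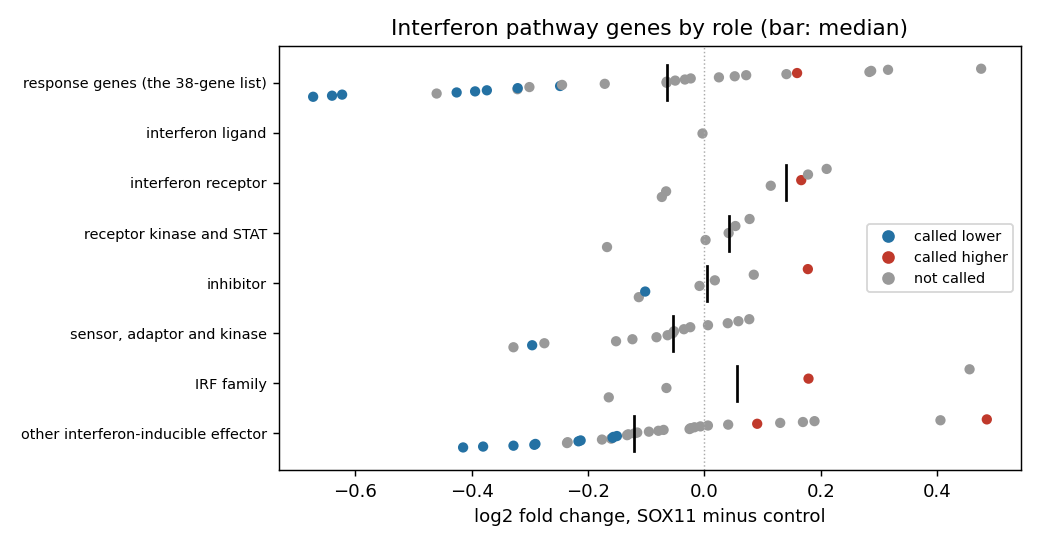
Log2 fold change (SOX11 minus control, x axis) of the 27 tested interferon response genes and the 70 tested further pathway genes, in rows by role, with 1 point per gene coloured by call and a bar at the median of each row. The 33 further effector genes hold 10 of the 12 lower calls of the pathway list. The row of 5 kinases and STATs has 0 calls, where 20% of all tested genes were called.

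Over all 37 members with a row, the summed level was 306 ± 11.4 CPM in SOX11 libraries (297 to 322) and 333 ± 11.7 CPM in control libraries (319 to 343, SD, n = 4 each). The ranges overlapped and the ratio of the means was 0.920. The 18 tested members that were not called summed to 149 ± 5.50 CPM in SOX11 and 151 ± 5.59 CPM in control libraries. The libraries of a group were not alike. Relative to the control mean, the median log2 level of the 27 tested members was -0.17, -0.01, -0.21 and -0.25 in SOX11 replicates 1 to 4 and 0.03, -0.05, 0.07 and -0.02 in control replicates 1 to 4. SOX11 replicate 2 was thus within the range of the control libraries, while the same median over all tested genes was between -0.00051 and 0.0066 in all 8 libraries.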

How the data were processed

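Per the submitters' processing notes, cutadapt, FastQC, STAR (version 2.7.0e) and the build GRCh38 were used. Which program counted reads, with which strand setting and on which annotation, is stated nowhere in the sources used here. Libraries were made with a stranded poly(A) kit, per the labels' protocols. The authors deposited raw counts per Ensembl gene, 1 column per library, with no normalization. Column names gave the sample of each of the 8 columns.

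Symbols were found for 32053 of 32066 identifiers. Positions, exon lengths and overlaps came from GENCODE release 29 (GRCh38), which may differ from the authors' annotation. Genes were filtered with filterByExpr (minimum count 10), scaled with TMM factors and tested with edgeR 4.0.16 (quasi-likelihood, robust, group only) in R 4.3.3, with Benjamini-Hochberg adjustment over all tested genes. Standard errors (SE) are the log2 fold change over the square root of F, and CPM were computed with TMM factors. Floors of 3 counts cover counting error only. Near-identical gene copies can share reads, and how they were counted is unknown. Within groups, counts of any pair of libraries differed by more than sampling noise (chi-square per degree of freedom 1.43 to 3.25).

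Alternatives were other scalings (RLE, upper quartile, library totals), no filter, limma-voom (limma 3.58.1), DESeq2 1.42.0, a stricter filter (1 CPM in 4 or more libraries), leaving out 1 library at a time and a block for the replicate number. All called members, the 6 uncalled members with the highest level per kb, core genes of the pathway (1 of them is not reported here) and the 10 called pathway genes with the smallest adjusted p were named by rule. The rule also accounts for every other member by count or value, and IFNE, IFNB1 and IFNL1 were named after their values were seen. The members and lists were chosen with earlier results of these data known.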

Additional observations from a re-analysis of the deposited data

Results flagged for a closer look

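Within a group of 4 libraries, 1 library stood apart from the other 3 (its gap to the nearest, over the range, was above Dixon's critical value for 4 samples) in 10 of 110 group values examined. Chance flags about 1 in 20 groups of continuous values, a rate that does not apply to the 6 of these that rest on 1 or 2 counts. For IFI35, SOX11 replicate 1 was at 6.73 CPM with the others at 5.21 to 5.44, and control replicate 2 was at 7.63 CPM with the others at 6.24 to 6.39. For HERC6, control replicate 2 was at 14.3 CPM with the others near 15.5. For OAS2, control replicate 3 was at 0.755 CPM (11 counts) with the others at 0.255 to 0.277. The other 6 rest on 1 or 2 counts with 0 in the remaining libraries of the group, where the gap equals the range by construction. These are BST2 and SAMD9L in SOX11 replicate 1 (0.123 CPM each), IFI44L and EPSTI1 in SOX11 replicate 2 (0.0591 CPM each), CMPK2 in SOX11 replicate 3 (0.0608 CPM) and RSAD2 in control replicate 3 (0.137 CPM).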

How the results depend on the processing

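Members called lower numbered 6 to 8 under the other scalings, filters, tests and the block, beside 8, and 6 to 9 with 1 library left out. OAS3, IFIT2, IFIT3, ISG15, MX1 and SAMD9 were called lower in each of these fits. Members called higher numbered 2 with library totals alone, beside 1, and 0 to 2 with 1 library left out (0 without SOX11 replicate 1 or 2 or control replicate 2 or 4, and 2 without SOX11 replicate 4 or control replicate 1). Pathway genes called higher numbered 8 with library totals alone, 3 without a filter and 2 with DESeq2, beside 5, and 2 to 5 with 1 library left out. The median log2 fold change of the members was -0.19 (without SOX11 replicate 2) to -0.044 (without control replicate 3) with 1 library left out. Deviations of same-numbered libraries from their group means correlated weakly (0.0632, -0.0683, -0.0412 and 0.109), and 2 of 4 SOX11 libraries were closest to their own number. Such values cannot decide whether same-numbered libraries were prepared together, which the labels do not say. With the replicate number as a block 6 members were called lower and 1 higher, and the adjusted p of IFIT1 (0.0560) and IFIT5 (0.0596) was above 0.05. With library totals alone it was 0.0530 for IFIT1 and 0.0706 for IFIT5. Genes near 0 changed sign. USP18 was at 0.0049 with library totals alone, and MAVS at -0.0022 without a filter. With 1 library left out, log2 fold changes ran from -0.076 to 0.026 for USP18, -0.10 to 0.19 for DDX60, -0.26 to 0.029 for OASL, -0.094 to 0.0054 for PARP14, -0.019 to 0.027 for MAVS and -0.11 to 0.0094 for STING1. The cause of these shifts was not tested. Counts of 0 to 11 per library limit the 10 members that were not tested.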
